A study of Mus musculus with 14 samples.

Results

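The mitosis genes are a list of 48 mouse genes whose products drive or carry out the division of a cell, chosen by symbol. This list and the other gene lists used below were chosen with earlier results of these data known. A probe set (a group of short array probes read as 1 value) belonged to the list if it was annotated to exactly 1 of these symbols. That rule found 82 of the 22690 probe sets on the arrays, and they represent 44 of the 48 genes, out of 12394 genes that could be named. No such probe set was listed for Ccnb1 (cyclin B1), Fbxo5, Cdkn3 and Cdca8, so these 4 genes have no values here. Of the 82 probe sets, 37 are of the types marked in the array design as able to detect more than 1 transcript, and 24 genes had several probe sets.

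The RNA came from mouse small intestine. Adult crypts (3 arrays) and adult villi (3 arrays) were each isolated from a C57BL/6 mouse aged 12 weeks. Endoderm (4 arrays), which forms the epithelium, and mesenchyme (4 arrays), which forms connective tissue and muscle, were dissected from the intestine of embryonic day 12 (E12) fetuses after collagenase digestion. For each E12 layer 1 array was made from a pool of 35 fetuses and 3 arrays from pools of 10 to 12, and no strain is given for the fetuses. No genotype or treatment is given for any group. The values are log2 signals in 2 tables that were normalized separately. One, called the 8-array table, has the 6 adult arrays plus endoderm and mesenchyme of the 35-fetus pools; the 6-array table has the remaining E12 arrays. Arrays are named as in the sample titles, K12, K21 and K41 for crypts and V12, V41 and V275 for villi, and by replicate number for E12.

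Entry into mitosis depends on the kinase Cdk1 bound to a cyclin, which together with the Aurora and polo-like kinases condenses the chromosomes and builds the spindle. The spindle checkpoint holds the cell in metaphase until every chromosome is attached, after which the anaphase promoting complex marks securin and cyclin B for destruction, the sister chromatids part and the cell is cleaved at the spindle midzone. In the adult intestine division takes place in the crypts, from stem cells at the crypt base and their rapidly cycling progeny, while the cells that cover the villus have left the cell cycle. In the fetal gut at midgestation cells divide in both layers.

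The markers of each tissue were read first. Absorptive enterocyte markers (8 measured) had a mean log2 signal of 11.4 to 12.0 in villi and 6.24 to 6.36 in crypts, and Paneth cell markers (4 measured) 12.7 to 12.9 in crypts and 7.97 to 9.57 in villi. Epithelial markers (7) were at 11.4 to 11.5 in endoderm and 5.90 to 6.56 in mesenchyme of the 6-array table, and stromal markers (12) at 5.29 to 5.65 and 9.92 to 10.00. Mesenchyme also carried more signal of erythroid (6 markers, 8.03 to 8.15 against 5.29 to 5.35), endothelial (6, 7.58 to 7.80 against 4.54 to 4.61), enteric neural (5, 8.31 to 8.46 against 4.80 to 4.93) and myeloid cells (7, 5.82 to 5.98 against 4.65 to 4.79). Villi also carried more T cell signal, 8.24 to 9.15 over 9 markers against 6.47 to 6.69 in crypts. A signal under the 30th percentile of its table (5.78 in the 8-array table, 4.74 in the 6-array table) is called near background below. In bulk RNA, fewer cells of a type and less RNA per cell cannot be told apart. The p-values measure only the spread between these samples.

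**Figure D1:**
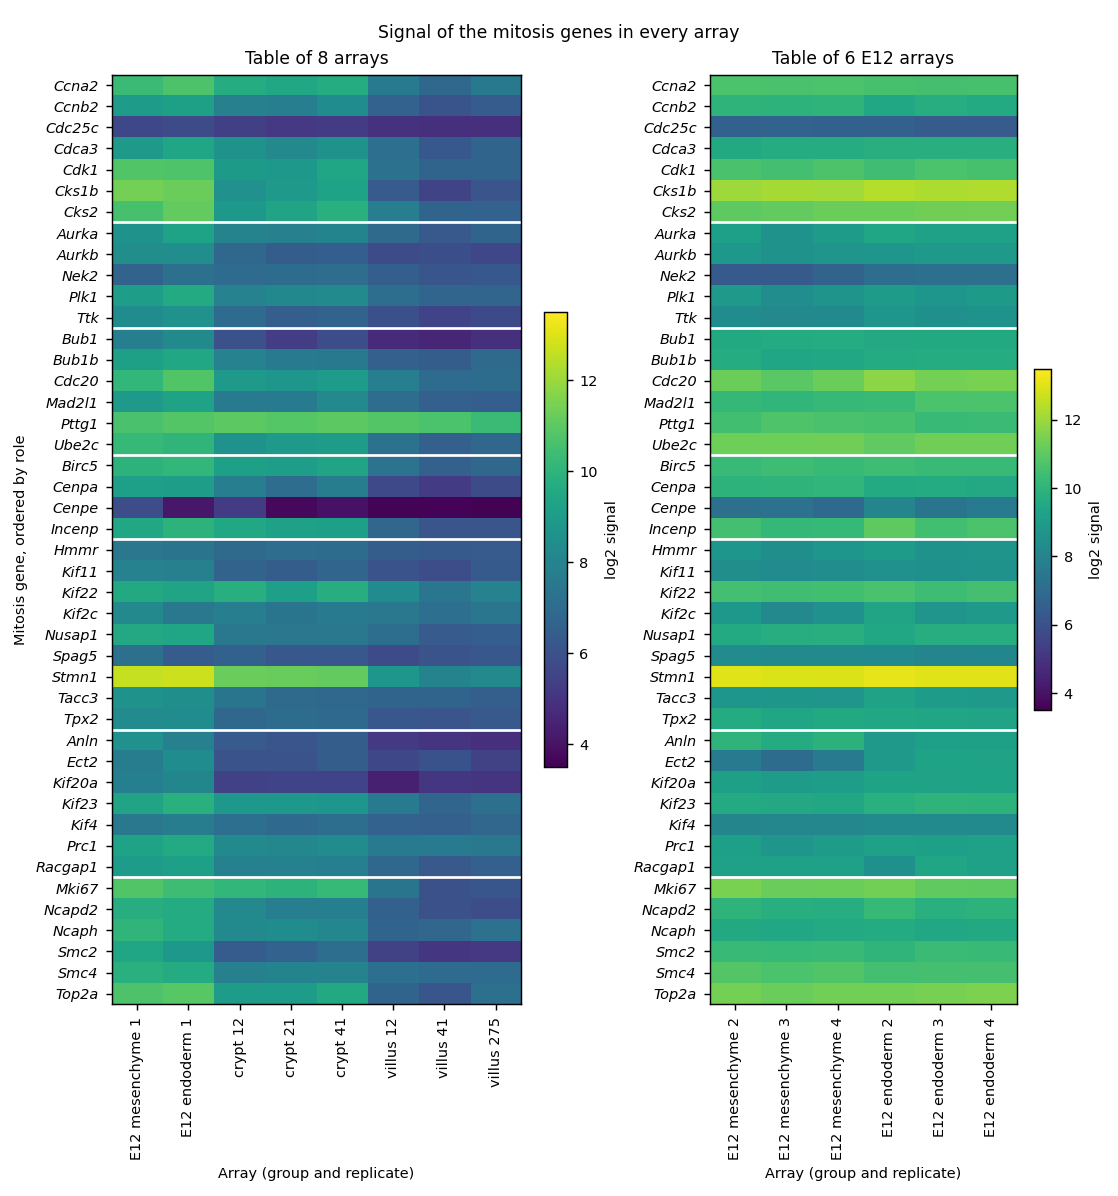
Log2 signal of the 44 measured mitosis genes (rows, grouped by role) in each array (columns, group and replicate), for the 8-array and the 6-array table. Along a row of the 8-array table the 2 E12 arrays and the crypts are brighter than the villi for most genes, while the 6 E12 arrays of the second table differ little. Rows are different probe sets, so their colours are to be compared along a row only.

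Villi were compared with crypts to ask how the division programme differs between the 2 adult compartments. Most of it was lower in villi. Of 40 mitosis genes tested, 34 fell in villi and 0 rose (limma adjusted p under 0.05), where 15.0% of all 9962 genes tested fell and 16.9% rose. The median log2 difference, villus minus crypt, was -1.29 over the 40 genes and -0.00 over all genes. In 38 of the 40 every villus array was below every crypt array, which held for 23.5% of all genes. Smc2 and Anln, counted in the 34 and in the 38, had 0 villus arrays above the background threshold. They entered the test through the crypts alone, so a rise was not open to them. Fewer genes were called lower with the adult replicate numbers as a block, as given at the end. At an unadjusted p under 0.05 the counts were 36 lower and 0 higher. The other 4 measured genes, Bub1, Cenpe, Cdc25c and Kif20a, were too close to background in these 6 arrays to enter the test. With the filter on dim genes removed, 36 of 44 fell and 0 rose, where 12.4% of all genes fell, and the added calls were Bub1 (-0.99, adjusted p = 0.0099) and Kif20a (-0.67, adjusted p = 0.038). In this comparison and the next, differences are on the log2 scale, where -1 is a 2-fold drop.

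**Figure D2:**
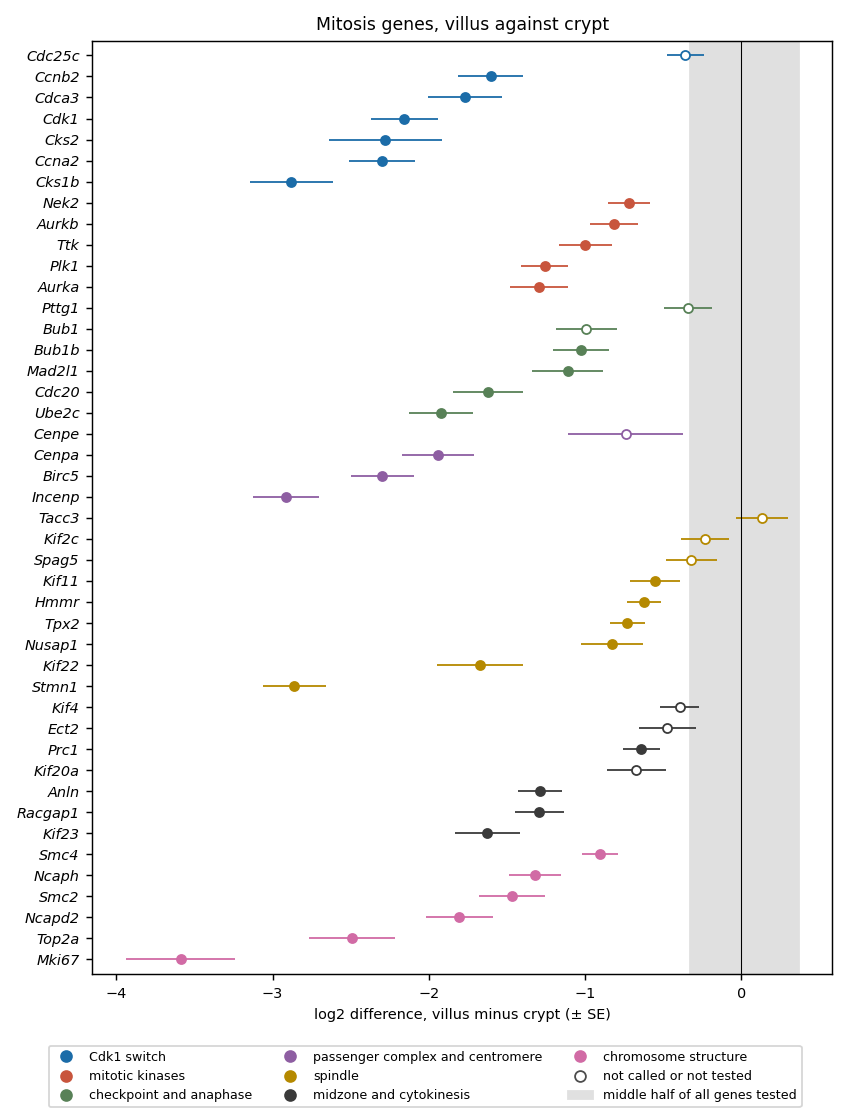
Log2 difference, villus minus crypt, with its standard error (3 arrays per group), for the 44 measured mitosis genes ordered by role. Filled points were called lower, open points were not called or not tested, and the grey band spans the interquartile range of all genes tested, so that a point left of the band lies below most genes. Mki67 (-3.59) lies farthest to the left and Tacc3 (0.13) is the 1 gene to the right of 0.

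The genes of the Cdk1 switch fell together, 6 of 6 tested, with a median difference of -2.22. Cdk1, the kinase that starts mitosis, had log2 signals of 8.96, 8.83 and 9.39 in crypt arrays K12, K21 and K41 and of 7.28, 6.72 and 6.71 in villus arrays V12, V41 and V275. The highest villus array was thus well below the lowest crypt array, and the difference was -2.16 ± 0.22 (SE, limma adjusted p = 0.00056), or 4.46-fold. Ccnb2, a B-type cyclin, had 7.86, 7.76 and 8.37 in crypts and 6.65, 6.11 and 6.41 in villi, a 3.04-fold difference (adjusted p = 0.0015). Cks1b, a small protein that binds Cdk1 and its relatives, fell from 8.56, 8.86 and 9.29 in crypts to 6.38, 5.54 and 6.14 in villi (-2.88 ± 0.27, adjusted p = 0.00040). That size belongs to a probe set of the types able to detect several transcripts, and its other probe set gave -1.28 (adjusted p = 0.0025 when tested in its place). Its sister gene Cks2 (-2.28), cyclin A2 (Ccna2, -2.30) and Cdca3, which helps to clear the Cdk1 inhibitor Wee1 (-1.77), fell as well. The Cdca3 call rests on 1 of its 3 probe sets: the others gave 0.04 and 0.09, and taking the median over all 3 the difference was -0.13 (adjusted p = 0.61). In E12 endoderm of the 6-array table those others read 4.24 to 4.34 and 3.28 to 3.45, under its background threshold of 4.74. The probe set tested read 9.76 to 9.78 there.

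Many genes of this programme are known to carry 2 short elements ahead of their start site, the cell cycle homology element bound by the DREAM and MuvB complexes (searched as TTTGAA and TTCGAA) and the CCAAT box bound by NF-Y. Promoters from RefSeq (GRCm38.p6), 250 bases before to 50 after the start, were found for 40 of the 48 genes, and both strands were searched. TTTGAA was in 29 of the 40 (72.5%), against 20.2% of the 27025 genes with a promoter in that table. TTCGAA was in 3 (7.50%, against 1.80%), CCAAT in 32 (80.0%, against 41.1%) and TTTGAA together with CCAAT in 27 (67.5%, against 7.97%). Both motifs can share bases where they adjoin, and a match is no evidence that a factor is bound. The last 120 bases before the start are shown for the genes below, 5′ to 3′ on the gene's strand. Their motifs differ in number and spacing. They are a chosen few, and Mki67, with the largest difference between villi and crypts, is not among them. Capitals mark the motifs on either strand, so TTCAAA stands for TTTGAA on the other strand, and ATTGG likewise for CCAAT.
Cdk1 (chr10:69352913-69353032, minus strand): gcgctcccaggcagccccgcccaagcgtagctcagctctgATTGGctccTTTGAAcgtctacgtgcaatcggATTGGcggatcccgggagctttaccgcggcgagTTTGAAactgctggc
Cks1b (chr3:89418292-89418411, minus strand): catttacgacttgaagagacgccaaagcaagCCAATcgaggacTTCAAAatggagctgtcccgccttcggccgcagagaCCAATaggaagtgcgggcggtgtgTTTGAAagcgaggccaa
Ccnb2 (chr9:70421555-70421674, minus strand): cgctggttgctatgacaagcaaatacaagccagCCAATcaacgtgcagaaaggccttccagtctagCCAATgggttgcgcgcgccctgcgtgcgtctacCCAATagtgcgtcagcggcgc
Cdc20 (chr4:118437344-118437463, minus strand): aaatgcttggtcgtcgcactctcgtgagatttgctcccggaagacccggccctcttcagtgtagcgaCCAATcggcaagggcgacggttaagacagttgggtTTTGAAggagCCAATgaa
Kif11 (chr19:37376262-37376381, plus strand): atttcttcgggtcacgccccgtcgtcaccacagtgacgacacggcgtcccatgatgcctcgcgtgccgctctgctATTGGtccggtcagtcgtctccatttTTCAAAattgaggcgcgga
Top2a (chr11:99024190-99024309, minus strand): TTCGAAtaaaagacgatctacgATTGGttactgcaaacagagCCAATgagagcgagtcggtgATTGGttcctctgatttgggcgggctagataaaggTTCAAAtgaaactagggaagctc
Pttg1 (chr11:43425982-43426101, minus strand): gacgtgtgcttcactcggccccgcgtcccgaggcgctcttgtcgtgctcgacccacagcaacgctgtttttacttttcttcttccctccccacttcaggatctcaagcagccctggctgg
In Ccnb2 3 CCAAT boxes begin at -87, -54 and -21 from the start, and a TTTGAA lies at +4, beyond the stretch shown. Cdk1 has a pair of each motif in this window, Cdc20 has TTTGAA at -18 between its CCAAT boxes, and the Pttg1 window holds none of them. Ect2, Kif4 and Spag5, which like Pttg1 were not called between villi and crypts, have both TTTGAA and CCAAT in their promoters. Whether the motifs and the differences in signal go together was not tested.

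The mitotic kinases fell in 5 of 5 cases, with a median of -0.998, less than the Cdk1 group in size. Plk1, which acts at the centrosome, the kinetochore and the midzone, had 7.95, 8.18 and 8.26 in crypts and 7.10, 6.77 and 6.75 in villi (-1.26 ± 0.16, adjusted p = 0.0013). Aurkb, the kinase of the chromosomal passenger complex, had 6.85, 6.43 and 6.50 in crypts and 5.81, 5.89 and 5.62 in villi (-0.82 ± 0.16, adjusted p = 0.0082), and its other probe set gave -0.21. The villus mean of Aurkb (5.78) and that of Ttk (5.73) were near background, so the size of these falls is limited from below. Aurka, which ripens the centrosomes, differed by -1.29, Ttk, the kinase that sets off the spindle checkpoint, by -0.998, and Nek2, which parts the centrosomes, by -0.72.

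Among the genes of the checkpoint and of anaphase 4 of 5 fell. Cdc20, the activator of the anaphase promoting complex, had 8.92, 8.76 and 8.99 in crypts and 7.79, 7.01 and 7.02 in villi (-1.62 ± 0.23, adjusted p = 0.0020), with villus array V12 the highest of the villi, and its other probe sets gave -2.78 and -0.14. Ube2c, the ubiquitin-conjugating enzyme of that complex, differed by -1.92, and the checkpoint genes Mad2l1 and Bub1b by -1.11 and -1.03. Securin (Pttg1), which holds separase in check, stayed out of this pattern. It had 10.98, 10.87 and 10.98 in crypts and 10.81, 10.68 and 10.31 in villi (-0.34 ± 0.17, adjusted p = 0.16), and its other probe sets gave -0.10 and -0.09. After quantile normalization of the arrays its difference was -0.74 (adjusted p = 0.016).

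The passenger complex and centromere genes had the largest median among the genes tested, -2.30, with 3 of 3 lower, close to the -2.22 of the Cdk1 switch. Cenpe of this group was not tested, and without the filter on dim genes it differed by -0.74 and was not called. Incenp, the scaffold that ties Aurora B to chromatin, had 9.48, 9.21 and 9.15 in crypts and 6.81, 6.15 and 6.14 in villi, a 7.53-fold difference (-2.91 ± 0.21, adjusted p = 0.00020). This too came from a probe set of the types able to detect several transcripts, and the other Incenp probe sets gave -1.49 (adjusted p = 0.00088 when tested in its place) and -0.22. Birc5 (survivin), another subunit, had 9.17, 9.06 and 9.36 in crypts and 7.30, 6.56 and 6.83 in villi (-2.30 ± 0.21, adjusted p = 0.00037). Cenpa, the histone H3 variant of centromeres, differed by -1.94 and was near background in villi (5.59).

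The spindle genes were the least uniform group, 6 of 9 lower with a median of -0.62. Stmn1 (stathmin), which destabilizes microtubules and also acts outside mitosis, had 11.22, 11.16 and 11.11 in crypts and 8.74, 7.98 and 8.19 in villi, a 7.26-fold difference (adjusted p = 0.00018), while its other probe set gave -0.74. Kif11, the motor that pushes the spindle poles apart, had 6.67, 6.46 and 6.77 in crypts and 6.07, 5.85 and 6.32 in villi (-0.55 ± 0.17, adjusted p = 0.041), and this call did not survive leaving out crypt array K12 (0.11), K21 (0.068) or K41 (0.11) or villus array V12 (0.084) or V41 (0.10). Another Kif11 probe set gave -1.07. Kif22 (-1.67, its other probe sets -0.67 and -1.27), Tpx2 (-0.73), Hmmr (-0.62) and Nusap1 (-0.83) also fell. The Nusap1 call was lost without crypt array K12 (adjusted p = 0.065), K21 (0.067) or K41 (0.055) or villus array V275 (0.062), and that of Hmmr taking the median over its probe sets (-0.41, adjusted p = 0.053).

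The other 3 spindle genes were not called. Tacc3, which steadies spindle microtubules, had 7.19, 6.74 and 6.75 in crypts and 7.07, 6.85 and 7.16 in villi, so the groups overlapped (0.13 ± 0.18, adjusted p = 0.61). Kif2c, a microtubule-depolymerizing kinesin, had 7.78, 7.39 and 7.60 in crypts and 7.49, 7.16 and 7.43 in villi (-0.23 ± 0.16, adjusted p = 0.33). For both genes the probe set with the highest mean, which was the one tested, differed from its fellows. Other Tacc3 probe sets gave -1.28 and -0.43, and other Kif2c probe sets -0.74, -0.65 and -0.00, of which the one at -0.65 was called once probe sets able to detect several transcripts were left out (adjusted p = 0.017). Spag5, a partner of the spindle poles, differed by -0.32 (adjusted p = 0.20), and its other probe sets by -0.59 and -0.98.

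Of the midzone and cytokinesis genes 4 of 6 fell (median -0.96). Kif23 and Racgap1, which form the centralspindlin complex, differed by -1.62 and -1.29, Anln, a scaffold of the contractile ring, by -1.29 and Prc1, which bundles midzone microtubules, by -0.64. The other Kif23 probe sets gave -0.23 and -0.28. No villus array of Anln was above the background threshold, so it entered the test through the crypts alone. Ect2, the exchange factor that triggers the contractile ring, differed by -0.47 (adjusted p = 0.098, and 0.038 without villus array V41), and Kif4, a chromosome-bound motor, by -0.39 (adjusted p = 0.067).

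The genes of chromosome structure fell in 6 of 6 cases, with a median of -1.64. Mki67, which coats mitotic chromosomes and is the usual marker of cycling cells, had 10.14, 9.98 and 10.21 in crypts and 7.40, 5.99 and 6.18 in villi, the largest difference of the list (-3.59 ± 0.35, adjusted p = 0.00047). Top2a, the topoisomerase that untangles sister chromatids, had 9.001, 9.009 and 9.57 in crypts and 6.74, 6.19 and 7.18 in villi (-2.49 ± 0.28, adjusted p = 0.00074); its other probe set, with no array above the background threshold, gave -0.00. The condensin subunits fell less evenly, with Ncapd2 at -1.80, Smc2 at -1.47, Ncaph at -1.32 and Smc4 at -0.91. Smc4 had 7.87, 8.001 and 7.97 in crypts and 7.14, 6.99 and 7.001 in villi (adjusted p = 0.0020). Smc2 had no villus array above the background threshold and entered the test through the crypts alone.

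The villus arrays were not alike. Villus array V12 had the highest of the 3 villus signals for 29 of the 40 genes (72.5%, against 35.7% of all genes), and villus array V41 the lowest for 27 (67.5%, against 42.9%). The mean of the Paneth cell markers ran the same way, 9.57, 7.97 and 8.69 in villus arrays V12, V41 and V275, and so did that of the 7 crypt base stem cell markers, 7.19, 6.71 and 6.95. Goblet cell (11.27, 10.92 and 10.94) and myeloid markers (7.04, 6.58 and 6.92) also had that order. Markers of absorptive enterocytes (11.38, 11.43 and 12.02), T cells (8.24, 8.59 and 9.15) and enteroendocrine cells (9.13, 8.98 and 8.80) did not. A link between these markers and the mitosis genes was not tested. Without villus array V12 the count of genes called lower was 33 and the median -1.40. Control transcripts differed between the groups too: the log2 signal of the 3′ minus the 5′ probe set of Actb was 0.96 to 1.27 in crypts and 0.15 to 0.44 in villi, and that of Gapdh 0.61 to 1.29 and 0.52 to 1.26. The part of this RNA quality difference and of the T cell signal in the falls was not tested. Leaving out each array in turn gave 30 to 34 genes lower.

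The rest of the division machinery, in lists that overlap neither the members nor each other, moved mostly the same way, 60 genes lower and 7 higher of 124 tested, where 15.0% of all genes were lower and 16.9% higher. These counts depended on the crypts: 31 were lower and 4 higher without crypt array K21, and 39 lower without crypt array K12. DNA replication genes led with 21 of 29 lower and 0 higher (median -0.82), among them Mcm7, a helicase subunit (-2.05), and Rfc1, of the clamp loader (-1.99). Other spindle and centrosome genes were lower in 11 of 21 cases (Cep55 -1.43, Haus1 -1.12), and other kinetochore genes in 7 of 15 (Cenpf -1.61, Cenpt -1.07). Cohesin genes were lower in 4 of 9, with Cdca5 (sororin) at -2.44 and Smc3 at -1.31, and G1 cyclins and kinases in 3 of 7, with Cdk4 at -2.27 and Ccnd1 at -2.18. Of the other condensin genes 0 of 2 were called in either direction, 0 of them at an unadjusted p under 0.05.

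Some genes of these lists went up, where 16.9% of all genes rose and 15.0% fell. Of 6 Cdk inhibitors 3 rose and 0 fell, led by Cdkn1a (p21), 9.42 ± 0.54 in crypts and 12.06 ± 0.15 in villi (SD, n = 3), and by Cdkn2b (p15, +1.63). The Cdkn2b call was lost without crypt array K12 (adjusted p = 0.067) or K21 (0.075). In the list of E2F, MuvB and FoxM1 regulators 6 of 13 fell, Tfdp1 most (-1.33). The retinoblastoma family genes Rb1 (+1.98) and Rbl2 (+0.78) rose, 2 of 13, a share near the 16.9% of all genes. Subunits of the anaphase promoting complex fell in 5 of 12 cases (Anapc5 -1.71, Cdc16 -1.02), while Fzr1, the activator that keeps the complex on in G1, rose by 0.54. It was 1 of 12 that rose, a share under the 16.9% of all genes. The Fzr1 call was lost without crypt array K12 (adjusted p = 0.079), K21 (0.096) or K41 (0.065) or villus array V275 (0.099), and that of Cdc16 without crypt array K12 (0.076), K21 (0.059) or K41 (0.053). The Anapc5 call was lost where probe sets able to detect several transcripts were left out (-0.84, adjusted p = 0.066). Of 10 other regulators of Cdk1, 3 fell, including Pbk (-1.44) and Melk (-1.22). Ensa, whose product inhibits the phosphatase that opposes Cdk1, rose by 0.98, the 1 of 10 that did, again under 16.9%.

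Crypts and villi were each compared with E12 endoderm, to set the adult compartments beside the tissue they descend from. In this table endoderm has 1 array (35 fetuses), assumed to vary like the other groups, and both comparisons use it. Of 41 mitosis genes tested, 31 were lower in crypt than in E12 endoderm and 0 higher, where 15.1% of all 10082 genes were lower and 8.20% higher, and at an unadjusted p under 0.05 the counts were 33 and 0. The median difference was -1.41 over the 41 genes and 0.05 over all genes. In villi 38 were lower and 0 higher (22.1% and 17.0% of all genes), with a median of -2.73 against 0.13, and at an unadjusted p under 0.05 again 38 and 0. Bub1, Smc2 and Anln, counted among the genes lower in villi, had 0 villus arrays above the background threshold. They entered the test through E12 and crypt arrays, so a rise in villi was not open to them. Ordered by mean signal, 38 of 41 genes ran from endoderm through crypt down to villus (92.7%), an order that 24.99% of all genes had. Kif22, Kif2c and Pttg1 were the 3 exceptions, with the crypt highest, above endoderm by 0.22, 0.10 and 0.11. These exceptions hang on the probe set: with the median over the probe sets of each gene, crypts were below endoderm in all 3.

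**Figure D3:**
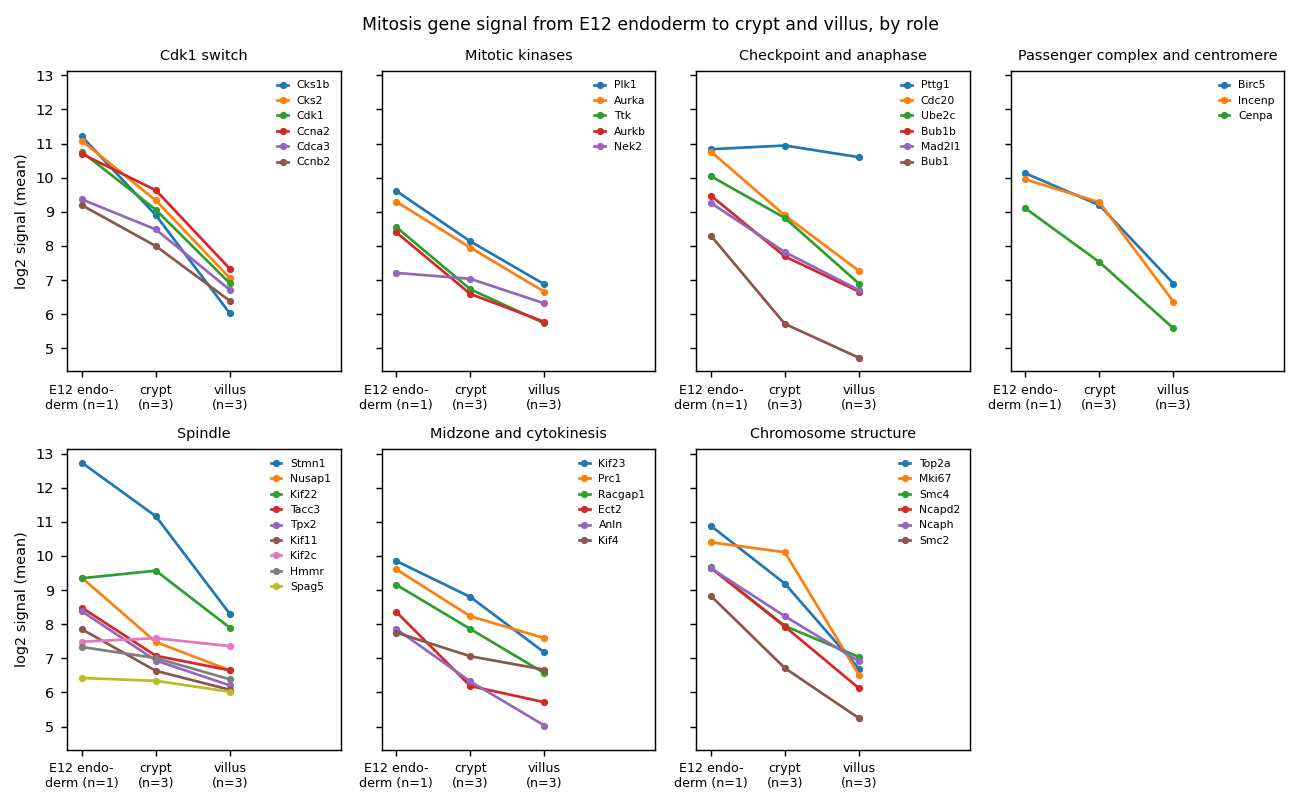
Mean log2 signal of the 41 mitosis genes tested in E12 endoderm (1 array), crypts (3 arrays) and villi (3 arrays), in a panel for each role, with a line per gene. Most lines fall at both steps; in the chromosome panel Mki67 is nearly level from endoderm (10.40) to crypt (10.11) and then drops to 6.52 in villi.

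The endoderm to crypt and crypt to villus steps are given side by side for some genes. Mki67 had 10.40 in E12 endoderm and 9.98 to 10.21 in crypts, a difference of -0.29 ± 0.49 (limma adjusted p = 0.68), and then -3.88 in villi against endoderm (adjusted p = 0.00071). Incenp (-0.67), Birc5 (-0.93), Nek2 (-0.17) and Hmmr (-0.32) were likewise not called between endoderm and crypt but were lower in villi. Bub1, the checkpoint kinase that marks the centromere, had 8.30 in endoderm, 5.97, 5.31 and 5.86 in crypts and 4.74, 4.59 and 4.84 in villi. Its crypt difference was the largest of the list (-2.59 ± 0.28, adjusted p = 0.0010), and its crypt mean was already near background. Ect2 had 8.36 in endoderm against 6.05, 6.07 and 6.44 in crypts (-2.17 ± 0.27, adjusted p = 0.0018) and 5.66, 6.01 and 5.47 in villi. Whether the steps differ between genes was not tested, and a missed call is weak evidence here, with 1 endoderm array. In simulated data 20% of 2-fold changes were called between endoderm and crypt, but 200 genes were altered there. In the data 1521 genes were called lower and 827 higher in crypts. That 20% therefore does not measure how often such a change was missed here.

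The Cdk1 switch was lower in crypts in 5 of 6 cases and in villi in 6 of 6. Cks1b had 11.21 in endoderm, which gave -2.31 ± 0.38 in crypts (adjusted p = 0.0049) and -5.19 ± 0.38 in villi (adjusted p = 9.0e-05), or 36.4-fold, the largest villus difference of the list. Its second probe set gave -3.29 between endoderm and crypts. Cdk1 had 10.76 in endoderm and differed by -1.70 in crypts (adjusted p = 0.0079) and -3.85 in villi (adjusted p = 0.00012). Ccnb2 had 9.19 and differed by -1.20 in crypts (adjusted p = 0.027), a call lost without crypt array K12 (0.070) or K21 (0.079), and by -2.80 in villi. Ccna2 (-1.07) and Cks2 (-1.75) were also called in crypts, and leaving out crypt array K12 (adjusted p = 0.081 and 0.10) or K21 (0.11 for both), or for Ccna2 also K41 (0.067), ended those calls.

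The kinases were lower in 4 of 5 cases in crypts and 5 of 5 in villi. Plk1 had 9.61 in endoderm and differed by -1.48 and -2.74, and Aurkb had 8.40 and differed by -1.80 and -2.62. Of the checkpoint and anaphase genes 5 of 6 were lower in each compartment. Cdc20 had 10.77 in endoderm and differed by -1.87 in crypts and -3.49 in villi. Mad2l1 (-1.44) and Ube2c (-1.23) lost their crypt calls without crypt array K12 (adjusted p = 0.053 and 0.060) or K21 (0.058 and 0.065). Pttg1, at 10.83 in endoderm, differed by 0.11 in crypts (adjusted p = 0.75) and by -0.23 in villi (adjusted p = 0.45).

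In the passenger and centromere group 1 of 3 was called in crypts, Cenpa (-1.58), and 3 of 3 in villi, with Incenp at -3.58, Cenpa at -3.52 and Birc5 at -3.23. Birc5 had 10.13 and Incenp 9.95 in endoderm. Midzone genes were lower in 6 of 6 cases in both compartments, among them Anln (-1.54 and -2.83), Prc1 (-1.37 and -2.01) and Racgap1 (-1.30 and -2.59). The crypt calls of Kif23 (-1.06) and Kif4 (-0.69) were lost without crypt array K12 (adjusted p = 0.087 and 0.060), K21 (0.10 and 0.11) or K41 (0.077 and 0.053).

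Chromosome genes were lower in 5 of 6 cases in crypts and 6 of 6 in villi. Top2a had 10.88 in endoderm and differed by -1.69 in crypts, a call lost without crypt array K12 (adjusted p = 0.058) or K21 (0.065) or taking the median over its probe sets (-0.64, adjusted p = 0.085), and by -4.18 ± 0.39 in villi (adjusted p = 0.00020). Smc4 had 9.67 and differed by -1.72 ± 0.18 in crypts (adjusted p = 0.00092) and -2.62 in villi. Smc2 differed by -2.12 and -3.59, Ncapd2 by -1.72 and -3.52 and Ncaph by -1.41 and -2.73.

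Spindle genes were lower in 5 of 9 cases in crypts and 7 of 9 in villi. Stmn1 had 12.74 in endoderm and differed by -1.57 in crypts (adjusted p = 0.0082; -0.75 and 0.080 with only probe sets not of the shared types) and by -4.43 ± 0.29 in villi (adjusted p = 6.2e-05). Kif11 had 7.85 and differed by -1.22 in crypts (adjusted p = 0.011) and -1.77 in villi. Kif2c and Spag5 had the smallest differences: Kif2c had 7.49 in endoderm against 7.39 to 7.78 in crypts (0.10 ± 0.23, adjusted p = 0.77) and -0.13 in villi (adjusted p = 0.67), and Spag5 had 6.42 against 6.59, 6.22 and 6.22 in crypts (-0.08 ± 0.25, adjusted p = 0.82) and 5.80, 6.07 and 6.199 in villi (-0.40, adjusted p = 0.22). These 2 results hang on the probe set. Taking the median over its probe sets, Kif2c differed by -1.34 in crypts (adjusted p = 0.0041) and -1.66 in villi (adjusted p = 0.00068), Spag5 by -0.98 and -1.86 (adjusted p = 0.016 and 0.00052) and Kif22 by -1.25 in crypts (adjusted p = 0.0025) in place of 0.22. Tacc3, here read by another probe set than in the adult comparison, differed by -1.41 in crypts and -1.84 in villi, and by -0.39 (adjusted p = 0.28) and -0.26 (adjusted p = 0.43) with its probe set that is not of the shared types.

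The E12 pair and the crypts stood apart in the control transcripts: the 3′ minus 5′ signal of Actb was -0.00 and 0.20 in E12 mesenchyme and endoderm and 0.96 to 1.27 in crypts, and that of Gapdh 0.16 and 0.24 against 0.61 to 1.29. Its part in the crypt differences was not tested. Villi had 0.15 to 0.44 for Actb and 0.52 to 1.26 for Gapdh, and the part of this was not tested either.

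Beside these, the lists of other division genes were lower in crypts in 80 of 129 cases and higher in 4 (1 without crypt array K21), and in villi lower in 91 and higher in 5. Of all genes 15.1% were lower and 8.20% higher in crypts, and 22.1% and 17.0% in villi. DNA replication genes were lower in 29 of 30 cases in crypts, led by Rrm2 (-3.08) and Mcm6 (-2.87), and in 30 of 30 in villi, led by Rrm2 (-4.49) and Mcm5 (-3.96). Other spindle genes were lower in 15 of 21 and 16 of 21 cases (Cep55 -2.31 and -3.74, Clasp1 -1.69 in crypts, Haus1 -2.76 in villi), kinetochore genes in 10 and 14 of 18 (Zwint -2.92 and -3.19, Spc25 -1.51 in crypts, Cenpf -3.04 in villi) and subunits of the anaphase promoting complex in 8 and 9 of 12 (Cdc16 -1.55 and -2.57, Cdc23 -1.48 and -2.22). The Cdc16 call in crypts was lost without crypt array K21 (adjusted p = 0.065), and the Spc25 difference was 0.39 (adjusted p = 0.24) with its probe set not of the shared types. Cohesin genes were lower in 5 of 9 cases in each (Smc3 -1.75 and -3.06, Smc1a -1.45 in crypts, Cdca5 -3.67 in villi), other Cdk1 regulators in 5 and 4 of 10 (Wee1 -2.31 and Melk -1.90 in crypts, Melk -3.11 and Pbk -2.94 in villi) and 1 of 3 other condensin genes, Ncapg2, in both (-1.75 and -2.13). The Smc1a difference was 0.13 (adjusted p = 0.79) taking the median over its probe sets, and the Wee1 call was lost without crypt array K12 (adjusted p = 0.054) or K21 (0.061).

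G1 genes parted: Cdk4 (-2.23 and -4.49) and Ccnd3 (-1.77 and -2.15) were lower in crypts and villi, in 4 and 5 of 7 cases, while Ccnd1 was higher in crypts by 1.49 (adjusted p = 0.021; 0.062 without crypt array K21). Among Cdk inhibitors Cdkn1c (p57) was lower in both (-3.58 and -3.15), the 1 of 6 that was. Cdkn2c was higher in crypts (+0.79, adjusted p = 0.022; 0.066 without crypt array K21), and 3 of 6 were higher in villi, with Cdkn2b at +3.00 and Cdkn1a at +2.97. Of the E2F, MuvB and FoxM1 regulators 2 of 13 were lower in crypts (E2f6 -1.55 the largest), a share near the 15.1% of all genes. In villi 6 were lower (Tfdp1 -2.52 the largest), and Rb1 (+1.70 and +3.67) and Rbl2 (+1.03 and +1.80) were higher in both crypts and villi. In crypts the Rb1 call was lost without crypt array K12 (adjusted p = 0.058), K21 (0.12) or K41 (0.089) and the Rbl2 call taking the median over its probe sets (+0.76, adjusted p = 0.055).

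E12 endoderm and mesenchyme were compared to ask whether the dividing fetal layers differ in these genes. Most were not called. Of 44 mitosis genes tested on the 6-array table, 8 were higher in endoderm and 3 lower (limma adjusted p under 0.05), 11 in all, where 27.7% of all 9442 genes were higher, 25.4% lower and 53.1% either. The median difference, endoderm minus mesenchyme, was 0.12 over the 44 genes and 0.03 over all genes. All endoderm arrays were above all mesenchyme arrays for 14 genes and below them for 8, where this held for 32.9% and 29.1% of all genes. The part of the other cell types whose markers were higher in mesenchyme was not tested. These counts and the p-values of this comparison come from a test without pairing. With the shared replicate numbers of the E12 pools as a block, 11 were higher and 3 lower. The unpaired counts hung on single arrays: 3 were higher without mesenchyme replicate 4, 4 without mesenchyme replicate 3 and 5 without endoderm replicate 4, and 6 were lower without endoderm replicate 2. Ect2, Nek2, Anln and Cenpa were the 4 genes called under every alternative run.

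**Figure D4:**
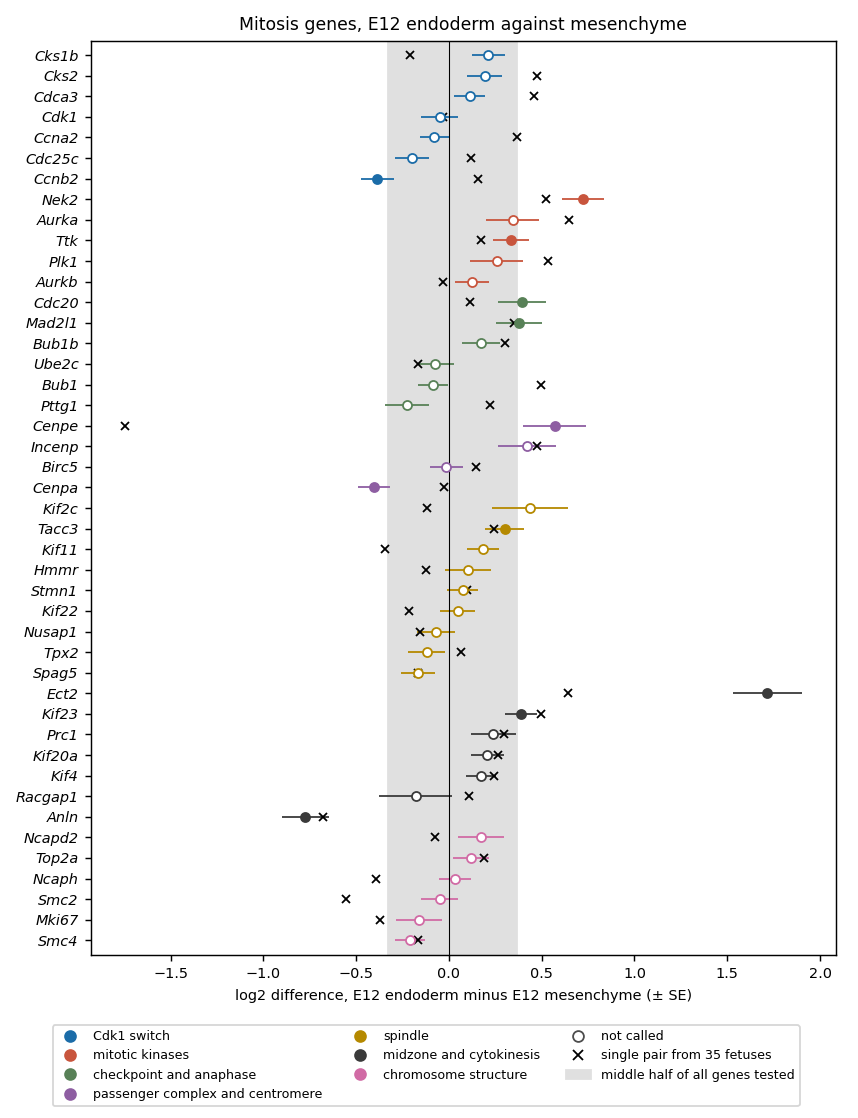
Log2 difference, E12 endoderm minus E12 mesenchyme, with its standard error (3 arrays per layer) for the 44 mitosis genes by role. Filled points were called, open points were not, crosses give the single pair of pools from 35 fetuses, and the grey band spans the interquartile range of all genes tested. Most genes lie inside the band. Of the points outside it, Ect2 (1.72) and Nek2 (0.72) lie farthest to the right and Anln (-0.77) farthest to the left.

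The largest difference was in a gene of cytokinesis. Ect2 had log2 signals of 8.89, 9.30 and 9.26 in endoderm replicates 2, 3 and 4 and of 7.67, 7.04 and 7.59 in mesenchyme replicates 2, 3 and 4. All endoderm arrays were above all mesenchyme arrays, by 1.72 ± 0.18 (adjusted p = 8.6e-05) or 3.29-fold, and the pair from 35 fetuses gave 0.64. Anln went the other way, with 8.90, 9.16 and 9.18 in endoderm and 10.00, 9.65 and 9.91 in mesenchyme (-0.77 ± 0.12, adjusted p = 0.00098), and with -0.68 in the pair. Kif23, a subunit of centralspindlin, was 0.39 higher (adjusted p = 0.0052; 0.18 taking the median over its probe sets). Its partner Racgap1 had 8.53 in endoderm replicate 2 and 9.37 and 9.22 in the other two, against 9.21 to 9.23 in mesenchyme (-0.18 ± 0.20, adjusted p = 0.48), and the difference was 0.075 without endoderm replicate 2.

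Of the kinases 2 of 5 were higher in endoderm, where 27.7% of all genes were. Nek2 had 7.13, 7.21 and 7.21 in endoderm and 6.35, 6.35 and 6.68 in mesenchyme (0.72 ± 0.11, adjusted p = 0.00075), and Ttk was 0.33 higher (adjusted p = 0.019). The Ttk call was lost without mesenchyme replicate 3 (0.073) or 4 (0.061) or endoderm replicate 4 (0.051). Plk1 had 9.04, 8.76 and 8.93 in endoderm and 8.90, 8.39 and 8.67 in mesenchyme (0.26 ± 0.14, adjusted p = 0.17), and Aurkb 8.77, 8.89 and 8.89 against 8.83, 8.65 and 8.70 (0.12 ± 0.09, adjusted p = 0.29). With the shared replicate numbers of the E12 pools as a block, Aurka (0.34, adjusted p = 0.041 in place of 0.072), Incenp (0.42, 0.0079 in place of 0.053) and Kif2c (0.44, 0.0070 in place of 0.11) were called as well.

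The Cdk1 switch gave 1 call in 7. Ccnb2 had 9.51, 9.72 and 9.60 in endoderm and 10.02, 9.98 and 9.99 in mesenchyme (-0.39 ± 0.09, adjusted p = 0.0064), but the pair from 35 fetuses had the opposite sign (0.16), and with all 8 E12 arrays the difference was -0.25 (adjusted p = 0.087). Cdk1 had 10.43, 10.67 and 10.58 in endoderm and 10.62, 10.51 and 10.70 in mesenchyme (-0.05 ± 0.10, adjusted p = 0.70), and Cks1b 12.39, 12.28 and 12.29 against 12.02, 12.17 and 12.13 (0.21 ± 0.09, adjusted p = 0.071).

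Of the checkpoint and anaphase genes 2 of 6 were higher, near the 27.7% of all genes. Cdc20 had 11.77, 11.40 and 11.47 in endoderm and 11.26, 10.96 and 11.24 in mesenchyme (0.39 ± 0.13, adjusted p = 0.034), and Mad2l1 was 0.38 higher (adjusted p = 0.032). That of Cdc20 was lost without mesenchyme replicate 3 (0.12) or 4 (0.061) or endoderm replicate 2 (0.069) or 4 (0.056), and by a probe set not of the shared types (0.18, adjusted p = 0.15). That of Mad2l1 was lost without mesenchyme replicate 2 (0.076), 3 (0.10) or 4 (0.064) or endoderm replicate 3 (0.10) or 4 (0.11). Bub1 had 9.55, 9.56 and 9.57 in endoderm and 9.58, 9.65 and 9.71 in mesenchyme, and Pttg1 10.58, 10.28 and 10.32 against 10.48, 10.76 and 10.62, and neither was called (adjusted p = 0.41 and 0.14; for Pttg1 0.031 without endoderm replicate 2).

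In the passenger and centromere group Cenpa was lower, with 9.61, 9.66 and 9.53 in endoderm against 9.95, 9.99 and 10.07 in mesenchyme (-0.40 ± 0.09, adjusted p = 0.0043; -0.03 in the pair). Cenpe, a kinetochore motor, was higher by 0.57 (adjusted p = 0.021; 0.086 without mesenchyme replicate 4), but the pair gave -1.74, at 4.13 in endoderm, under the background threshold, and 5.87 in mesenchyme. Birc5 had the smallest difference of the list, with 10.40, 10.29 and 10.22 in endoderm and 10.28, 10.38 and 10.29 in mesenchyme (-0.01 ± 0.09, adjusted p = 0.91). Of the 11 called genes 9 had the same sign in the single pair (94.3% of all called genes did), Ccnb2 and Cenpe being the others.

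Among the spindle genes 1 of 9 was called, Tacc3 at 0.30 (adjusted p = 0.044), and its call was lost without any array but endoderm replicate 4 (adjusted p = 0.067 to 0.13). Stmn1 had 13.13, 13.00 and 13.04 in endoderm and 13.02, 12.95 and 12.98 in mesenchyme (0.07 ± 0.08, adjusted p = 0.50), and Kif11 8.57, 8.52 and 8.65 against 8.43, 8.34 and 8.42 (0.18 ± 0.08, adjusted p = 0.10). Kif2c had 9.33, 8.70 and 8.87 in endoderm and 8.85, 8.20 and 8.54 in mesenchyme (adjusted p = 0.11), with replicate 2 the highest of each layer, and its probe set not of the shared types gave -0.19 (adjusted p = 0.48). Spag5 had 8.26, 8.06 and 8.09 in endoderm and 8.33, 8.29 and 8.29 in mesenchyme (-0.17 ± 0.09, adjusted p = 0.15; 0.035 without endoderm replicate 2).

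Of the chromosome genes 0 of 6 were called in limma's test, and 1 at an unadjusted p under 0.05, Smc4. Smc4 had 10.53, 10.54 and 10.56 in endoderm and 10.81, 10.68 and 10.77 in mesenchyme (-0.21 ± 0.08, adjusted p = 0.062; 0.048 with all 8 E12 arrays and 0.033 with a trended and robust prior). Mki67 had 11.37, 11.06 and 11.02 in endoderm and 11.47, 11.20 and 11.26 in mesenchyme (-0.16 ± 0.12, adjusted p = 0.32). Top2a had 11.36, 11.45 and 11.53 against 11.41, 11.20 and 11.37 (0.12 ± 0.10, adjusted p = 0.33), and Ncaph 9.64, 9.51 and 9.58 against 9.57, 9.46 and 9.60 (0.03 ± 0.09, adjusted p = 0.77). In each of these last 3 genes the layers overlapped.

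Endoderm replicate 2 stood apart in RNA quality. The 3′ minus 5′ signal of Actb was 1.48 there and 0.39 to 0.65 in the other 5 arrays, and that of Gapdh 0.97 against 0.16 to 0.30. Of 76 probe sets of mitosis genes above the threshold 10 were lower in it by 0.5 or more than in the mean of endoderm replicates 3 and 4 (13.2%, against 9.97% of all probe sets), and 4 were higher (5.26%, against 6.02%). The lowest were 1 probe set each of Kif2c (-2.03), Kif11 (-1.54), Spag5 (-1.49), Hmmr (-1.35) and Incenp (-1.29, all log2 differences). Without this replicate 6 genes were lower and 6 higher in endoderm, and Ect2, Nek2, Anln and Cenpa were still called.

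**Figure D5:**
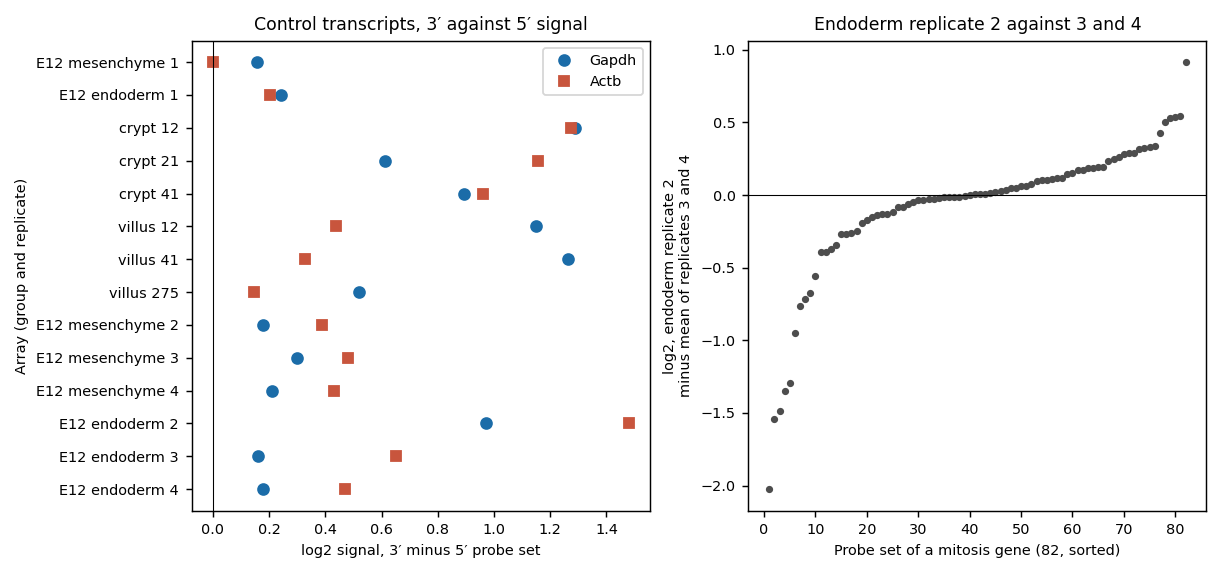
Left, log2 signal of the 3′ minus the 5′ probe set of the control transcripts Gapdh and Actb in each of the 14 arrays. Right, log2 signal of endoderm replicate 2 minus the mean of endoderm replicates 3 and 4 for the 82 probe sets of the mitosis genes, sorted. Endoderm replicate 2 has the highest Actb value (1.48) of all arrays, and its probe sets reach down to -2.03.

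Other division genes were called no more often than genes in general: 33 of 138 were higher in endoderm and 19 lower, where 27.7% and 25.4% of all genes were. DNA replication genes were higher in 8 of 31 cases, a share near that 27.7%, and lower in 0, by at most 0.58 (Pola2) and 0.57 (Rfc5). The larger differences lay with regulators. Wee1, the kinase that holds Cdk1 inactive, was 1.83 higher in endoderm and Cdc25b, a phosphatase that frees it, 1.16 lower, in a list of Cdk1 regulators with 5 of 10 higher and 2 lower (the other being Ensa, -0.26). Of 6 Cdk inhibitors 4 were lower, Cdkn1c most (-2.12), and Cdkn1a (+2.75) and Cdkn2b (+1.76) were higher. Rbl2 (-1.19) and Rb1 (-1.05) were lower among 14 E2F, MuvB and FoxM1 regulators of which 5 were higher, and 3 of 7 G1 genes were lower (Ccnd3 -0.96, Ccnd1 -0.82). Other spindle genes were higher in 5 of 22 cases (Cep55 +1.35, Haus2 +0.61) and lower in 1 (Ckap2, -0.35). Other kinetochore genes were higher in 5 of 23 (Cenpo, +0.73) and lower in 3 (Cenpm -0.72, Ska2 -0.43, Cenpt -0.35). Cohesin genes were higher in 2 of 9 (Cdca5 +0.76, Esco1 +0.55), and subunits of the anaphase promoting complex lower in 4 of 13 (Cdc16 -0.70, Cdc23 -0.60) and higher in 1 (Anapc15, +0.45). Of 3 other condensin genes 0 were called, and 0 at an unadjusted p under 0.05. The median of probe sets ended the calls of Cenpo (+0.05, adjusted p = 0.67) and Cep55 (+0.95, 0.055), and those of Ensa, Cenpt and Ska2 were lost without at least 2 single arrays (adjusted p = 0.056 to 0.15).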

How the data were processed

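Total RNA, labelled with phycoerythrin, was hybridized to single-colour arrays of 2 platforms with the same probe sets. The deposited values are log2 signals made by the authors with RMA (background correction, normalization and summary of the probes), per the submitters' processing notes. The RMA version was not given in the sources used here. Arrays have no read depth, and their number limits the precision.

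Where a gene had several probe sets, the brightest on average over the arrays compared stood for it. A gene entered a test if 3 or more arrays exceeded the 30th percentile of all values in that table. Tests used limma 3.58.1 (linear model and moderated variance, R 4.3.3), p-values were adjusted by Benjamini-Hochberg across every gene tested, and the threshold was 0.05. All 14 arrays were used, each test within 1 table. Members and gene lists were chosen with earlier results of these data known. Any member may be named; array values are given for 12 core genes, the 3 largest and 2 smallest differences of a comparison and members called against most others, and in other lists the 2 largest called differences and every call against the list's direction are named. No array was a copy of another: at most 377 of 12394 gene values were equal in a pair.

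E12 pools share replicate numbers 2, 3 and 4 across layers. Deviations of same-numbered pools correlated at 0.21, 0.23 and 0.11, each over 0.1, so the numbers were taken to pair them, on the titles and this check. Endoderm replicate 3 and mesenchyme replicate 4 also reached 0.13. The main test of the E12 layers was run without this pairing, and the replicate block was an alternative.

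In simulated data with 200 altered genes, calls were made for 74% of those set at 2-fold and 97% of those set at 4-fold for villus against crypt (9962 genes). The shares were 100% at both sizes between E12 layers (9442), 20% and 91% for crypt and 25% and 97% for villus against E12 endoderm (10082 each). Many more genes than 200 were called in each comparison of the data. The p-value adjustment was therefore stricter in the simulation, and its shares need not hold for the data. The alternatives were other choices of probe set, filter, normalization, prior, samples and replicate block.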

Additional observations from a re-analysis of the deposited data

How the results depend on the processing

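Most directions held, and calls depended on the probe set and on single arrays. Between villus and crypt 21 of 34 called genes were called under every alternative, between crypt and E12 endoderm 21 of 31, between villus and E12 endoderm 36 of 38 and between the E12 layers 4 of 11. The other division genes named gave 86 results, in which a gene counts once for each comparison that names it. Of these results 64 kept their call and direction. For villus against crypt the median of the members was -1.07 with every probe set as a feature and -1.60 with a 50th percentile filter. With the adult replicate numbers as a block (12 and 41 shared, correlations of 0.16 and 0.07, too few to pair and not tied to animals) 22 members were lower, and 20 other division genes lower and 2 higher. Leaving out single arrays gave 31 to 51 other genes lower and 4 to 7 higher, and every probe set as a feature gave 93 lower of 190. Tacc3 changed direction with the median of probe sets (-0.33), the replicate block (-0.013), all 8 arrays (-0.43) and single arrays left out (-0.36 to 0.28).

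Between the E12 layers the members called higher were 5 with the median of probe sets, 5 of 33 without probe sets of the shared types (median 0.057) and 3 to 9 with an array left out, and those called lower 3 to 6. The E12 replicate block gave 11 higher and 3 lower and changed no call but those given above. Directions turned with the median of probe sets for Bub1 (0.02) and Kif2c (-0.37), without the shared types for Kif2c (-0.19) and Cks1b (-0.083), and with all 8 E12 arrays for Birc5 (0.027), Bub1 (0.060), Ccna2 (0.032), Cenpe (-0.0087), Kif22 (-0.019) and Ncaph (-0.073). With arrays left out Birc5 ranged over -0.062 to 0.028, Cdk1 -0.10 to 0.015, Hmmr -0.0017 to 0.16, Kif22 -0.0033 to 0.12, Ncaph -0.0083 to 0.067, Nusap1 -0.12 to 0.017, Racgap1 -0.27 to 0.11, Smc2 -0.10 to 0.032 and Ube2c -0.12 to 0.015.

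Against E12 endoderm the crypt median was -1.23 and the villus median -2.54 after quantile normalization, and every probe set as a feature gave 60 members of 68 and 138 other genes lower in villi, and 7 other genes higher in crypts. With crypt arrays left out 1 to 4 other genes were higher in crypts, and a 50th percentile filter gave 3 higher in villi. Directions turned in crypts with the median of probe sets for Cdca3 (0.32), Kif22 (-1.25), Kif2c (-1.34), Pttg1 (-0.18) and Smc1a (0.13), without the shared types for Kif22 (-1.25), Kif2c (-1.34) and Spc25 (0.39), and after quantile normalization for Mki67 (0.065). In villi they turned for Cdca3 (0.20, median of probe sets) and Pttg1 (0.26, without the shared types). The cause was not tested. Signals near background limit the falls of Cenpa, Smc2, Anln, Ttk, Aurkb, Ect2 and, against E12 endoderm, Bub1 in villi.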
